A study of Mus musculus with 8 samples.

Results

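The regions described here lie in the first intron of a gene, more than 1000 bp from the nearest transcription start site. They were taken from a table of 129304 accessible regions, each 800 bp wide, by their annotation alone: on chromosomes 1 to 19, in intron 1 of a transcript, with no repeat and no CpG island named in the detailed annotation. This gave 16009 regions (12.4% of the table), which form 12686 separate stretches once overlapping regions are joined. They are assigned to 4881 gene symbols, of which 2183 have 1 region and 312 have at least 10, with 63 at most. The rule uses no measured value.

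Acetylation of lysine 27 on histone H3 (H3K27ac) was measured by chromatin immunoprecipitation and sequencing in brain nuclei of C57BL/6 mice aged 2 years labelled WT or GrnKO, the latter with Grn knocked out. Each group had 2 H3K27ac libraries, each from the pooled microglial nuclei of 2 mice sorted as PU.1 positive, OLIG2 negative and NEUN negative, with 1 input library (sonicated chromatin without immunoprecipitation) per pool. PU.1 marks myeloid nuclei in general, so the gate also admits macrophages of the brain borders. How the Grn allele was made is not given in the sources used here. In such bulk samples fewer cells of a type and less acetylation per cell cannot be told apart.

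H3K27ac marks active promoters and active enhancers. First introns are often long, lie next to the promoter and hold many enhancers, which can act on the host gene or on a neighbour. Grn encodes progranulin, a secreted protein that is delivered to lysosomes, and microglia are the brain cells that express it most. In macrophages, the transcription factors of the MiT/TFE family (Tfeb, Mitf, Tfec and Tfe3) switch on lysosomal genes through the E-box CACGTG, and they are held in the cytoplasm by mTORC1, the Rag GTPases and the folliculin complex when lysosomes are well supplied.

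A few first-intron regions contain a transcription start of their own. RefSeq (GRCm38.p6) lists a start inside 115 of the 16009 regions, 72 of them the start of a long non-coding RNA and 33 that of another transcript of the host gene. Of these regions 91 were tested, of which 10 were higher (11.0%) and 3 were lower (3.30%) in GrnKO by the test described below, against 6.80% and 2.92% of all tested regions. The 250 bases before such a start are printed for 3 regions that changed, because these bases lie wholly inside the region that was measured. The promoters of Fnip2 and Adgrg1 are added, since they are the nearest starts to many changed regions. Sequences run 5′ to 3′ on the strand of the transcript, and capitals mark matches on either strand to 6 motifs. They are the E-box CACGTG, its longer form TCACGTG that contains it, the AP-1 motif TGANTCA, the PU.1 motif GAGGAAGT, the motif of interferon regulatory factors (a pair of GAAA with any 2 bases between them) and the RUNX motif TGTGGT.

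Dnmt3a intron, before Gm31623, chr12:3894687-3894936, minus strand: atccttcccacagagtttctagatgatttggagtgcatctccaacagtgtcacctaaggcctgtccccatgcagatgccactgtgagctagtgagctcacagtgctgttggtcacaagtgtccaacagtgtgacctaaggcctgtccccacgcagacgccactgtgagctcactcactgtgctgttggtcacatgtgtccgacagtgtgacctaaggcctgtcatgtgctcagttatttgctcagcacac
Pldi intron, before Gm26947, chr10:60931740-60931989, plus strand: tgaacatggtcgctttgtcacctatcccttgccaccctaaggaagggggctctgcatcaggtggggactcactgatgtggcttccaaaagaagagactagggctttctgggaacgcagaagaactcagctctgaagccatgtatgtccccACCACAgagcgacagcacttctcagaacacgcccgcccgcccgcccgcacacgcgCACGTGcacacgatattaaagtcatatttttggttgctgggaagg
2610035D17Rik intron, before LOC115487747, chr11:113173084-113173333, minus strand: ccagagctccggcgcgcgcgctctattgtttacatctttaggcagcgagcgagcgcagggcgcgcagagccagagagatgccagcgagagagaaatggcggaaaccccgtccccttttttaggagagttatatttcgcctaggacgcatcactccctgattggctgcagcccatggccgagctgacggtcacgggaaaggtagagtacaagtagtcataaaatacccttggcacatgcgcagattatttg
Fnip2 promoter, chr3:79567680-79567929, minus strand: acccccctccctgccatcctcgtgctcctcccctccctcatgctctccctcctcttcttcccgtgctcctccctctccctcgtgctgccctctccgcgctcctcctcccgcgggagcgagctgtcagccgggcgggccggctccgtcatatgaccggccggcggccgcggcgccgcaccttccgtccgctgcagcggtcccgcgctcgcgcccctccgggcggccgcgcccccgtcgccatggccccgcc
Adgrg1 promoter, chr8:94984149-94984398, plus strand: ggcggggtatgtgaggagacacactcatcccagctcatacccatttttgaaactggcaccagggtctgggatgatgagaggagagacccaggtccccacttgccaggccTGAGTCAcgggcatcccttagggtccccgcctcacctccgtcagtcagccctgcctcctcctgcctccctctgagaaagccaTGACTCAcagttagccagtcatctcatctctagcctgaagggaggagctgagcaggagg

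The Pldi window holds 1 CACGTG and 1 TGTGGT, the latter on the opposite strand as ACCACA. The Adgrg1 promoter holds 2 TGANTCA matches. The Dnmt3a, 2610035D17Rik and Fnip2 windows hold none of the 6 motifs. Among all 32851 windows of this length in the RefSeq table, 6.02% hold CACGTG, 3.13% TCACGTG, 6.75% TGANTCA, 2.44% GAGGAAGT, 2.98% the GAAA pair and 14.0% TGTGGT. Among the 226 promoter windows of genes with at least 2 higher first-intron regions, 7.52% hold CACGTG, against 8.15% of the 3362 windows of all genes with a tested first-intron region. A match is a description of the letters and not a measured binding site.

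The H3K27ac libraries held between 15491642.5 and 20030832 tags and the inputs between 4078179 and 14415969. Values are given as scaled tags, which are tags per region at a library total of 10000000, divided by a TMM factor (trimmed mean of M values) that aligns the bulk of regions between libraries. A count of 3 tags, taken as the floor of detection, is at most 1.94 scaled tags before that step in the H3K27ac libraries and 2.08 to 7.36 in the inputs, which covers counting error only. WT replicate 1 stood apart: 49.4% of its tags fell in the listed regions, against 63.3% to 65.7% in the other 3 H3K27ac libraries. Over the tested first-intron regions, which are not independent of each other, log2 values correlated with a Pearson's r of 0.893 for the WT pair, 0.942 for the GrnKO pair and 0.839 to 0.876 across genotypes.

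The promoter regions of all 10 microglial markers, among them Cx3cr1, P2ry12, Tmem119, Csf1r, Sall1, Spi1, Siglech, Trem2 and Fcrls, were above 20 scaled tags in every library, with medians of 477 to 632. Over all regions assigned to these markers, signal summed to 53307 and 58583 scaled tags in WT against 44722 and 47163 in GrnKO, with 38 of 249 tested regions lower and 2 higher. With the authors' scaling the groups overlapped (43995 and 60674 in WT, 48356 and 51030 in GrnKO), and 1 region was lower and 2 higher. The Tmem119 promoter held 331 and 348 in WT and 207 and 227 in GrnKO, and that of Sall1 held 533 and 628 in WT and 357 and 461 in GrnKO. Medians over the measured promoters of neuronal markers were between 0 and 0.92 scaled tags, those of oligodendrocyte markers between 5.63 and 15.1, those of astrocyte markers between 0.26 and 11.9 and those of endothelial markers between 43.0 and 62.5. Some promoters of such genes were above 20 scaled tags in every library, among them Slc1a3 (63.4 to 76.1) and Kdr (108 to 172). The Flt1 promoter held 7.04 and 13.6 scaled tags in WT but 60.0 and 62.5 in GrnKO. That of Kdr held 135 and 108 in WT and 149 and 172 in GrnKO. That of Pecam1 went the other way, with 43.0 and 44.8 in WT and 28.6 and 36.2 in GrnKO. Over all regions of the endothelial markers 7 of 53 tested were higher and 5 lower. The oligodendrocyte markers summed over their regions to 1985 and 1996 scaled tags in WT against 2502 and 2644 in GrnKO, with 4 of 28 tested regions higher and 1 lower. Among their promoters that of Mog held 54.0 and 47.7 in WT and 27.4 and 25.1 in GrnKO. That of Mbp held 21.9 and 11.3 in WT and 30.5 and 26.3 in GrnKO. Lyve1 and Cd163 had no region at their start. Over all regions assigned to the border macrophage markers Mrc1, Lyve1, Cd163, F13a1, Pf4 and Ms4a7, signal summed to 989 and 973 scaled tags in WT against 1501 and 1300 in GrnKO, with 7 of 44 tested regions higher and 0 lower. The Ms4a7 promoter held 37.1 and 29.6 in WT and 132 and 105 in GrnKO, whereas the groups overlapped at those of Mrc1 (54.4 and 84.1 in WT, 85.4 and 83.5 in GrnKO), F13a1 (25.4 and 30.6, 39.3 and 21.7) and Pf4 (36.8 and 23.8, 28.8 and 15.9). The Mrc1 first-intron region held 15.3 and 9.69 in WT and 8.20 and 6.00 in GrnKO and did not pass the test. Over those of 4 lymphocyte markers the sums were 261 and 219 in WT against 655 and 484 in GrnKO, with 4 of 7 tested regions higher. The part of these cells in the results below was not tested.

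In Grn itself both first-intron regions that belong to this set lost their signal in the GrnKO libraries. The region at chr11:102431807-102432607 held 238 and 224 scaled tags in WT and 0 in both GrnKO libraries, at least 150-fold lower given a floor of 3 tags per library. The region at chr11:102432407-102433207 held 138 and 158 in WT and 0 in both GrnKO libraries, at least 96.0-fold lower. All 4 libraries thus match the genotype of their labels at this gene.

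Across the first introns, more regions gained than lost acetylation in GrnKO, at about the rate of the whole table. Of the 16009 regions 11302 (70.6%) had enough tags to be tested, with limma over all 80728 such regions, with Benjamini-Hochberg adjustment and a threshold of 0.05. Among them 860 (7.61%) were higher and 322 (2.85%) were lower in GrnKO, against 6.80% higher and 2.92% lower among all tested regions (9.72% in both directions). Without adjustment 2831 regions had a limma p under 0.05, and these include the called regions. The genotypes did not overlap in 53.3% of tested first-intron regions, against 52.7% of all tested regions. The median log2 change was 0.0017 in first introns and -0.0020 over the table.

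Among called regions the gains were larger than the losses on the log2 scale, and they began from a lower median level. The 860 higher regions had a median log2 change of 1.41, and 646 of them changed at least 2-fold. Their median level went from 33.8 scaled tags in WT to 92.0 in GrnKO. The 322 lower regions had a median log2 change of -0.85, and 116 changed at least 2-fold, with a median level of 158 in WT and 86.0 in GrnKO. Gains of at least 2-fold were called in 5.22% and losses in 1.05% of all tested regions. In 123 higher regions, assigned to 103 symbols, both WT values were under 10 scaled tags: their medians were 4.56 in WT and 29.0 in GrnKO. They made up 1.09% of tested first-intron regions, against 1.06% for such regions in the whole table. In 21 lower regions, assigned to 19 symbols, both GrnKO values were under 10, with medians of 25.7 in WT and 3.86 in GrnKO, or 0.186% of tested first-intron regions against 0.162% in the whole table.

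These counts depend on single libraries and on the scaling. Without WT replicate 1 there were 1266 higher and 658 lower regions (10.5% and 5.40% of all tested regions), and without WT replicate 2 there were 1465 and 613 (11.9% and 5.80%). Without GrnKO replicate 1 there were 196 and 27 (1.43% and 0.247%), and without GrnKO replicate 2 there were 234 and 52 (1.83% and 0.522%). In these fits the lone library is assumed to vary like the other group. With the authors' scaling alone the median log2 change over first-intron regions was 0.22, and 1017 regions were higher and 49 lower (8.15% and 0.412% of all tested regions), so that 95.4% of called regions were higher, against 72.8% with TMM. The edgeR test called 754 higher and 271 lower (6.08% and 2.50% of all tested regions), and DESeq2 called 797 and 339 (6.40% and 3.03%). No called region was called in the opposite direction under any of these settings. In the input libraries 0 of the 11302 regions differed between genotypes (0 of all tested regions), with limma, and 159 had an unadjusted p under 0.05. That test had few tags to work with. Of all listed regions 91.3% and 60.3% held 0 in the WT inputs, and 43.1% and 81.9% in the GrnKO inputs. It therefore cannot show that the background was equal.

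First-intron regions took 6.74% and 8.85% of all tags in the WT libraries and 9.0% and 9.26% in the GrnKO libraries. The difference of 1.34 percentage points did not exceed the SD of the WT pair (1.49, n = 2), and a two-sided exact permutation test returned p = 0.333, which is the lowest this design can reach. As a share of the tags that fell in listed regions the values were nearly level, at 13.7% and 14.0% in WT and 13.9% and 14.1% in GrnKO (exact permutation p = 0.667).

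The share of called regions differed between ranges of distance to the nearest start. Between 1000 and 3000 bp from the start, 179 of 2757 tested regions were higher (6.49%) and 95 lower (3.45%). Between 30000 and 100000 bp, 152 of 1602 were higher (9.49%) and 34 lower (2.12%). The share of higher regions was greater and that of lower regions smaller at each step in between, and beyond 100000 bp, where only 249 regions were tested, 10 were higher and 13 lower. The same order up to 100000 bp held without WT replicate 1, where higher regions went from 9.90% to 14.0% and lower ones from 6.60% to 4.43%. With edgeR the first step was absent, with 5.88%, 5.82%, 7.70% and 8.05% higher and 2.83%, 2.85%, 1.77% and 1.69% lower in the 4 ranges up to 100000 bp. The authors' scaling gave 7.65%, 8.25%, 9.83% and 11.7% higher, and the last step was reversed among lower regions, at 0.508%, 0.505%, 0.301% and 0.375%. Higher regions lay at a median of 10998.5 bp from the start and lower regions at 6330.5 bp. No test was made between these ranges, since neighbouring regions share their intron. Just outside the limit of 1000 bp, at 750 to 1000 bp, 6.19% were higher and 3.41% lower, and in the 250 bp just inside it, 6.42% and 2.45%.

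**Figure D1:**
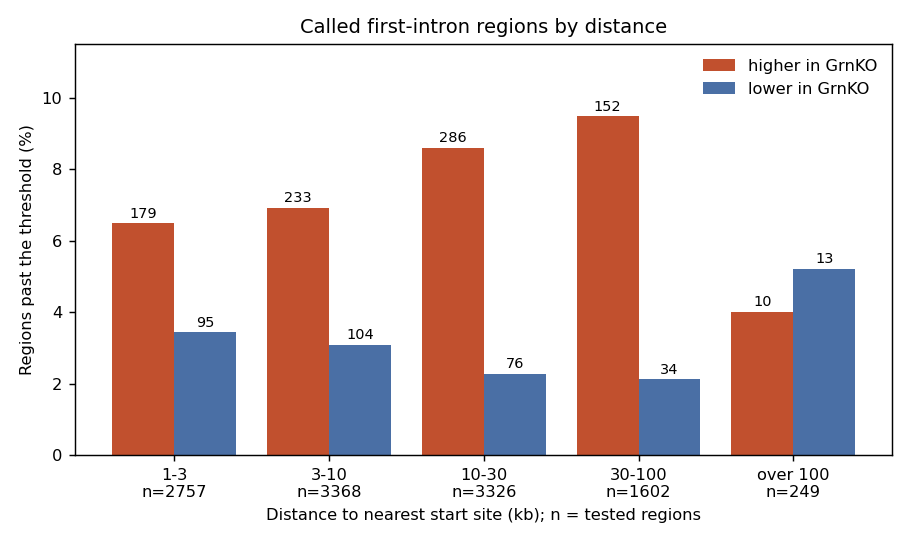
Share of tested first-intron regions past the threshold (%, y axis, from 0) in 5 ranges of distance to the nearest start site (kb, x axis), for regions higher (red) and lower (blue) in GrnKO, with the number of regions over each bar. Higher regions go from 6.49% to 9.49% and lower regions from 3.45% to 2.12% between the range nearest the start and that of 30 to 100 kb, and the last range holds 249 tested regions.

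Calls were fewest among regions with little signal. With tested regions ranked by mean signal and cut into 4 equal groups, from lowest to highest 0.88%, 6.02%, 12.4% and 11.2% were higher, and 0.28%, 1.27%, 3.22% and 6.62% were lower. Of 600 tested regions in transcripts with a single intron 3.83% were higher and 4.17% lower, with 5.50% and 0.333% under the authors' scaling and 8.83% and 6.67% without WT replicate 1. For comparison, 3.64% of tested regions within 1000 bp of a start were higher and 1.63% lower, 8.21% and 3.19% in later introns, and 9.06% and 3.75% in intergenic regions at 1 to 50 kb from a start. These classes differ in level, with median signals of 15.3 scaled tags in first introns, 26.9 at starts, 9.42 in later introns and 6.49 between genes before TMM, and the differences between classes were not tested.

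Among higher regions the smallest p belonged to one in intron 1 of 12 of Cerk, which encodes ceramide kinase, at chr15:86168867-86169667. It held 256 and 232 scaled tags in WT and 712 and 760 in GrnKO, so both GrnKO libraries lay far above both WT libraries (log2 change 1.59, SE 0.13, limma adjusted p = 1.1e-06). Its nearest start is that of the non-coding Gm15569, and 8 of the 11 tested regions of this intron that the table assigns to Gm15569 were higher. A region of Tst, which encodes the mitochondrial sulfurtransferase rhodanese, at chr15:78401097-78401897, held 27.4 and 17.02 in WT and 196 and 199 in GrnKO (log2 change 3.14, SE 0.28, limma adjusted p = 3.3e-06).

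Several of these regions were close to silent in WT. The region of Cipc, an inhibitor of the circadian factor CLOCK, at chr12:86949357-86950157, held 8.22 and 4.19 scaled tags in WT and 119 and 116 in GrnKO (log2 change 4.10, SE 0.40). That of Stac2, which encodes an adaptor protein of calcium channels, held 4.69 and 4.97 in WT and 90.5 and 78.9 in GrnKO. Both had less than 10 scaled tags in each WT library. Regions of Ttyh2, Pldi, Sash1 and Stpg1 changed by a log2 of 2.84 to 3.74. Those of Nol4l, Sipa1l2 and Capzb started from 45.1 to 130 scaled tags in WT and changed by 1.62 to 2.10. At the regions of Stpg1, Ttyh2 and Stac2 the highest input value was 55.1, 22.5 and 17.6 scaled tags, more than both WT H3K27ac values there.

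**Figure D2:**
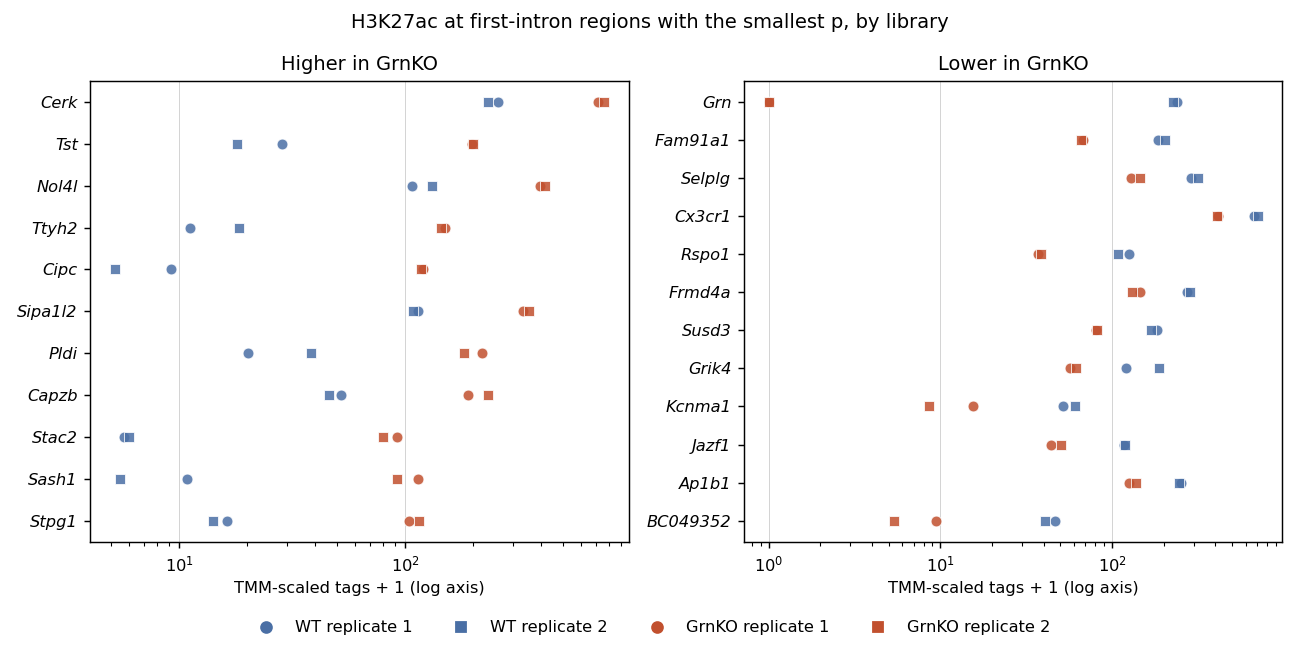
H3K27ac in each of the 4 libraries (TMM-scaled tags plus 1, log axis) at 11 higher and 12 lower first-intron regions with the smallest p, 1 row per gene. Circles are replicate 1 and squares replicate 2, WT in blue and GrnKO in red, and rows were chosen among regions with separated groups. The WT points of Cipc and Stac2 lie under 10 scaled tags, and the GrnKO points of Grn lie at 0.

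Apart from Grn, the lower regions mostly changed less on the log2 scale and mostly began from higher levels. The most significant of them was in intron 1 of 23 of Fam91a1, which encodes a protein of vesicle capture at the trans-Golgi, at chr15:58416475-58417275. It held 185 and 203 scaled tags in WT and 66.8 and 65.3 in GrnKO (log2 change -1.54, SE 0.21, limma adjusted p = 0.00011). The Selplg region at chr5:113827938-113828738, in the gene of the P-selectin ligand PSGL-1, held 287 and 315 in WT and 128 and 144 in GrnKO (log2 change -1.14). The Cx3cr1 region at chr9:120065188-120065988, in the gene of the fractalkine receptor, fell by 0.74 on the log2 scale, from 666 and 707 in WT to 414 and 406 in GrnKO. Its call was lost with the authors' scaling, as were those of Frmd4a and Ap1b1.

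Among the others, the region of Rspo1, a secreted enhancer of Wnt signalling, held 124 and 107 in WT and 36.2 and 37.4 in GrnKO. That of Kcnma1, the large-conductance potassium channel, lay 204121 bp from the start and went from 50.8 and 59.7 to 14.4 and 7.62. Regions of Frmd4a, Susd3, Grik4, Jazf1, Ap1b1 (a subunit of the AP-1 clathrin adaptor) and BC049352 changed by a log2 of -0.92 to -2.61. These regions were picked among those with separated groups.

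The 5 first-intron regions with the highest mean signal showed small differences. The strongest, in E230029C05Rik, held 1033 and 995 scaled tags in WT and 749 and 813 in GrnKO (log2 change -0.38, limma adjusted p = 0.020), and its call was lost with the authors' scaling, with cyclic loess and without either GrnKO library. A Susd3 region held 829 and 912 in WT and 646 and 747 in GrnKO (limma adjusted p = 0.069). Regions of Rasgrp3, Tmem86a and Syngr1, at 613 to 921 scaled tags, did not pass the test, and in the first 2 both GrnKO values lay between the WT values.

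In some genes most of the intron changed together. The 860 higher regions were assigned to 448 symbols, of which 190 had at least 2 and 27 at least 5. The 322 lower regions were assigned to 212 symbols, of which 64 had at least 2 and 4 at least 5. Neighbouring regions can overlap and then share tags, so each intron was also summed per symbol. Of the 2902 symbols with a mean sum of at least 10 scaled tags 352 were higher (12.1%) and 197 lower (6.79%) in a limma fit over these sums alone. Without GrnKO replicate 1 there were 110 and 22, without GrnKO replicate 2 there were 145 and 69, and with the authors' scaling 32 were lower.

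Morrbid, a long non-coding RNA of myeloid cells that the table names Gm14005, had the most higher regions: 12 of 19 tested, with all 19 log2 changes above 0. Its 21 regions summed to 830 and 823 scaled tags in WT and 2068 and 1909 in GrnKO (log2 change 1.26, SE 0.11, limma adjusted p = 2.9e-06). The higher regions lay in groups at 33853 to 36785, 55216 to 64980 (with 1 region that did not pass among them) and 86948 to 91993 bp from the start. The region nearest the start, at 1050 bp, held 21.1 and 52.1 in WT and 77.2 and 60.9 in GrnKO and did not pass the test.

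Fnip2 encodes a partner of folliculin, which acts on the Rag GTPases to keep MiT/TFE factors phosphorylated. In its first intron 11 of 16 tested regions were higher and 0 lower. The region at chr3:79539439-79540239 held 69.2 and 68.6 scaled tags in WT and 215 and 223 in GrnKO (log2 change 1.65, SE 0.20, limma adjusted p = 4.3e-05), and another at 30360 bp from the start went from 6.25 and 9.95 to 66.8 and 73.4. Regions at 5701, 8130 and 8420 bp did not pass the test, with log2 changes of 0.87, -0.21 and 0.23, while the region at 1077 bp and those from 15708 to 39572 bp did. The sum over the intron was 498 and 528 in WT and 1255 and 1211 in GrnKO. Over the Fnip2 promoter regions, each 800 bp wide, the sum was 149 and 239 in WT and 574 and 619 in GrnKO.

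Rxra encodes retinoid X receptor alpha, the shared partner of the liver X receptors and PPARs. Its 30 tested regions included 10 higher and 0 lower, in separate blocks. At 3790 bp from the nearest start a region held 54.0 and 65.7 scaled tags in WT and 228 and 173 in GrnKO (log2 change 1.72, SE 0.22, limma adjusted p = 8.7e-05). The strongest regions of the intron, at 6026 and 6538 bp from the same start, held 367 to 470 in WT and 354 to 443 in GrnKO and did not pass the test (log2 changes 0.09 and 0.03). At 17067 to 18559 bp 4 neighbouring regions were higher again, by a log2 of 1.02 to 1.31.

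Other introns with many higher regions were those of Nek6, a mitotic kinase (10 of 14 tested, sum 1375 and 1559 in WT and 2552 and 2703 in GrnKO), and of the sorting nexin Snx24 (10 of 13, 1396 and 1454 in WT and 2694 and 2726 in GrnKO). In Dscam, a cell adhesion gene of neurons, 8 of 9 tested regions were higher, and these held at most 31.3 scaled tags each in WT. The intron summed to 105 and 68.6 scaled tags in WT and 496 and 500 in GrnKO (log2 change 2.54, SE 0.21, limma adjusted p = 2.9e-06).

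Adgrg1, which encodes the adhesion receptor GPR56 of resident microglia, had 7 lower regions among 9 tested and 0 higher. At the region at chr8:94996785-94997585 the values were 173 and 174 scaled tags in WT and 86.8 and 86.3 in GrnKO (log2 change -0.996). All 9 log2 changes were below 0, from -0.42 to -0.996. The intron summed to 1641 and 2011 in WT and 1066 and 1137 in GrnKO (log2 change -0.72, SE 0.12, limma adjusted p = 0.00064). The Adgrg1 promoter regions, each 800 bp wide, summed to 307 and 322 in WT and 282 and 380 in GrnKO, so there the groups overlapped.

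P3h2, which encodes a collagen prolyl hydroxylase, also had 7 lower regions among 21 tested, 6 of them within 10799 bp of the start and 1 at 70528 bp. Its intron summed to 2943 and 3149 in WT and 2326 and 2139 in GrnKO, and its promoter to 232 and 219 in WT and 81.5 and 95.7 in GrnKO. In Ptp4a3, a tyrosine phosphatase, 6 of 14 were lower (sum 2602 and 2692 in WT, 1582 and 1962 in GrnKO). In Pid1, where the table names Mir6353 as nearest, 5 of 9 were lower (1068 and 993 in WT, 652 and 598 in GrnKO), and in Fam91a1 all 4 were (832 and 864 in WT, 392 and 438 in GrnKO).

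**Figure D3:**
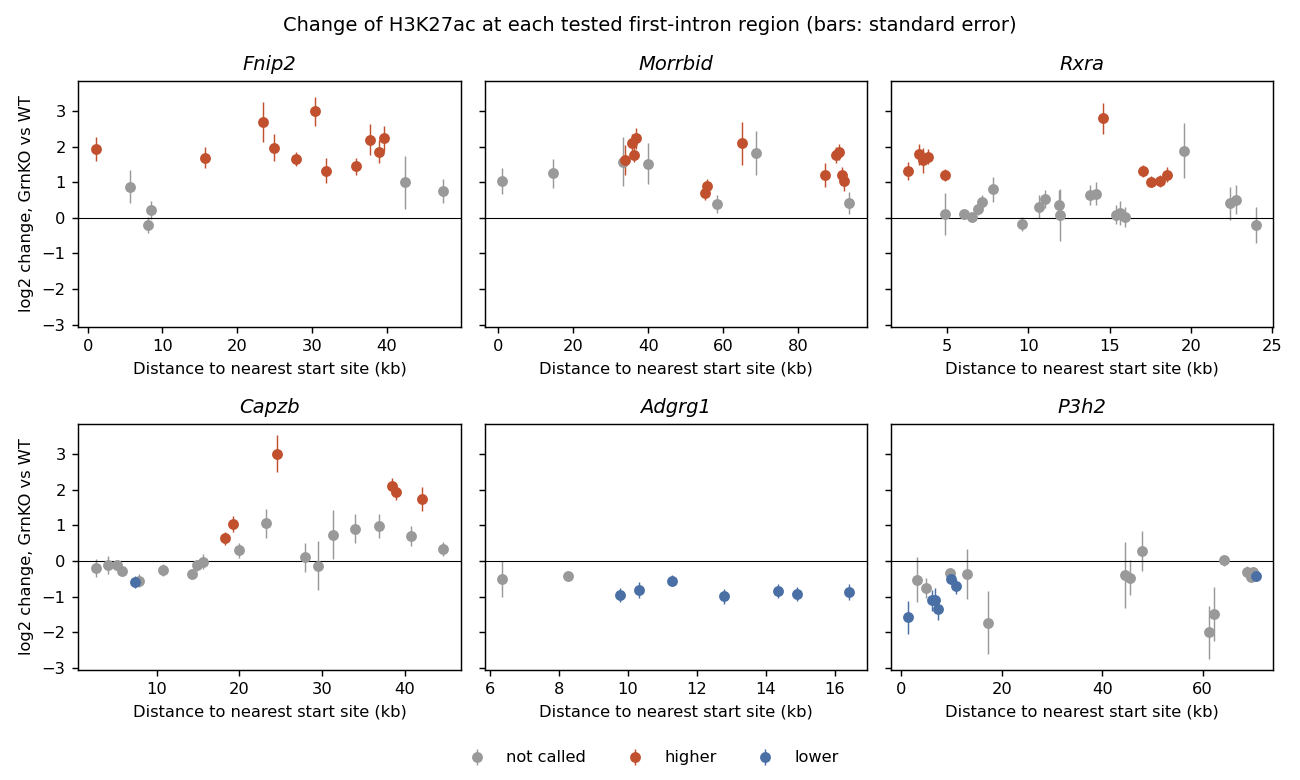
The log2 change between GrnKO and WT (y axis, bars are the standard error) at each tested first-intron region of 6 genes, by distance to the nearest start site (kb, x axis, absolute). Red points are higher, blue lower and grey not called: Fnip2 and Morrbid are mostly red, Adgrg1 mostly blue, and Rxra and Capzb mix red points with regions near 0.

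In 19 symbols the first intron held both higher and lower regions. In Capzb, which encodes the beta subunit of the actin capping protein, 6 of 25 tested regions were higher and 1 lower. The region at 38504 bp from the start held 50.8 and 45.1 scaled tags in WT and 188 and 231 in GrnKO (log2 change 2.10), and that at 7311 bp held 219 and 216 in WT and 136 and 154 in GrnKO (log2 change -0.59, limma adjusted p = 0.040). The sum over the Capzb intron did not pass the test (log2 change 0.14, limma adjusted p = 0.31). In Frmd4a 4 of 14 were lower and 1 higher: the region at 1476 bp went from 273 and 282 in WT to 145 and 130 in GrnKO, while that at 8994 bp went from 184 and 136 to 242 and 259. The other symbols were Mpzl1, Rusc2, Lhfpl2, Ptprm, Dock10, Pmepa1, Zdhhc14, Snx30, Mctp1, Rreb1, Ninj2, Phactr2, Pag1, Tmem204, Zfhx3, N4bp1 and Cmip.

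First introns were compared with the promoter of the same gene. Of the 352 symbols with a higher intron sum 303 had promoter regions, with a median log2 change of 1.06 in the intron and 0.48 at the promoter. Of the 197 lower ones 160 did, with -0.64 and -0.40. The intron was chosen for its change here, so the smaller promoter value is a description. A fit of the ratio of intron to promoter over 2439 genes called 0 (0% of those tested) with limma, where 331 had an unadjusted p under 0.05 and the smallest adjusted p was 0.13. With a minimum mean of 30 scaled tags for both sums, which keeps fewer genes than 2439, 8 had a higher ratio.

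The genes at the head of that fit were picked for a changed ratio in either direction, and none passed the test. In Bbs2, a gene of the cilia-related BBSome, the intron sum went from 46.5 and 54.7 scaled tags in WT to 176 and 168 in GrnKO, while the promoter held 35.6 and 41.4 in WT and 31.7 and 33.2 in GrnKO. In Mrtfa (Mkl1 in the table), a coactivator of serum response factor, the intron sum went from 93.5 and 88.0 to 313 and 286, and the promoter held 48.9 and 48.5 in WT and 47.8 and 34.6 in GrnKO. Fnip1, the paralog of Fnip2, went the other way: its intron held 195 and 228 in WT and 122 and 161 in GrnKO, and its promoter 257 and 244 in WT against 495 and 554 in GrnKO.

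The fit of first against later introns over 1264 genes called 1 gene (0.0791%), Grn, as lower, and 237 had an unadjusted p under 0.05. The later introns of Grn summed to 0.79 and 6.02 scaled tags in WT and 33.4 and 46.1 in GrnKO, so that ratio also holds a difference in the later introns. That call was not made without GrnKO replicate 1, without GrnKO replicate 2 or with the replicate block. With a minimum mean of 30 scaled tags, which keeps fewer genes than 1264, 15 were higher and 12 lower.

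**Figure D4:**
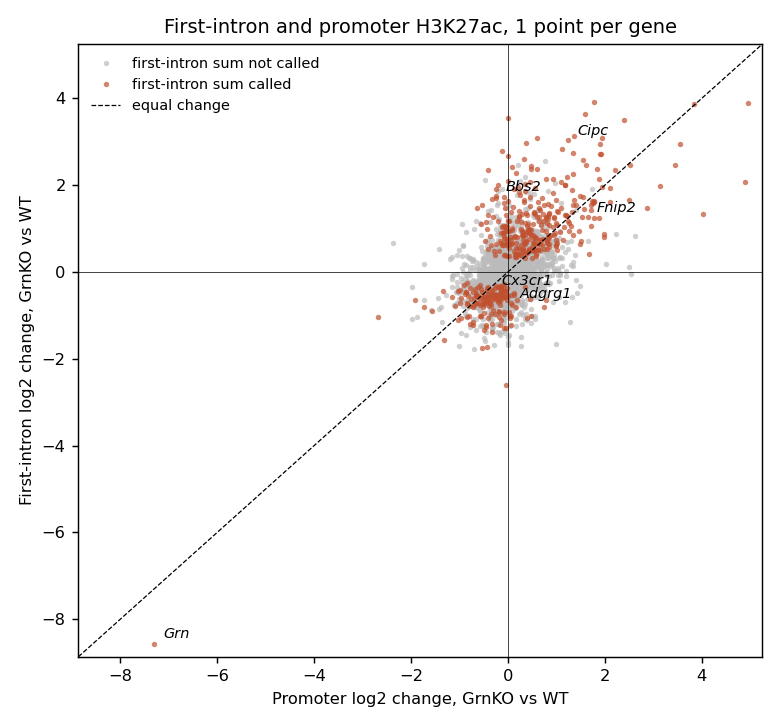
Log2 change between GrnKO and WT of the summed first-intron signal (y axis) against that of the summed promoter signal (x axis), 1 point per gene with both, red where the first-intron sum passed the threshold. The dashed line marks equal change: most called genes with a gain lie above it, and Grn lies at the lower left with a loss in both.

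Gene lists place these regions by function. A region counts for a list when its nearest start or its host gene is in the list, and counts are read against 6.80% higher and 2.92% lower among all tested regions. The list of MiT/TFE factors, Rag GTPases, folliculin and mTORC1 had 78 tested regions in 12 genes, of which 25 (32.1%) were higher and 0 lower. Its median log2 change was 0.56, with 0.32 without WT replicate 1 and 0.78 under the authors' scaling. All 25 belonged to 4 genes: Fnip2 with 11, Tfeb and Tfec with 5 each and Mitf with 4. The count was 8 without GrnKO replicate 1 and 12 without GrnKO replicate 2, and without WT replicate 1 there were 31 higher and 2 lower.

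Tfeb is the main activator of lysosomal genes in this family. Its region at chr17:47759446-47760246 held 84.1 and 111 scaled tags in WT and 267 and 248 in GrnKO (log2 change 1.40, SE 0.19, limma adjusted p = 0.00014). The higher regions of Tfeb lay at 18776 to 22293 bp from the start and at 1145 bp from another start. Tfec, the family member most restricted to myeloid cells, had a region that held 21.1 and 22.5 in WT and 129 and 94.4 in GrnKO (log2 change 2.29, SE 0.30). Mitf changed less: the region with its smallest p held 118 and 87.0 in WT and 199 and 183 in GrnKO (log2 change 0.91, SE 0.20, limma adjusted p = 0.0079), and that call was lost without either GrnKO library.

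In the list of lysosomal enzymes and membrane proteins 18 of 125 tested regions were higher (14.4%) and 6 lower (4.8%), with a median log2 change of 0.15. That median was 0.073 without WT replicate 1, 0.23 without WT replicate 2 and 0.37 with the authors' scaling. The counts were 4 higher and 2 lower without GrnKO replicate 1, and without GrnKO replicate 2 there were 6 and 2. They were 21 and 5 without WT replicate 1, 26 and 10 without WT replicate 2 and 16 and 2 with the authors' scaling. Of the higher regions 6 lay in Ctsb, which encodes cathepsin B, 3 each in Ctsd (cathepsin D) and Atp6v1a (a subunit of the proton pump), and 1 each in 6 other genes. The Ctsb region at chr14:63130462-63131262 held 107 and 130 scaled tags in WT and 292 and 317 in GrnKO (log2 change 1.36, SE 0.17, limma adjusted p = 7.9e-05). A region of Npc1, the lysosomal cholesterol exporter, held 124 and 104 in WT and 249 and 289 in GrnKO. Of the lower regions 2 were those of Grn, and 1 each lay in Psap, Slc29a3, Atp6v0a2 and Asah1. Psap encodes prosaposin, a binding partner of progranulin, and its region went from 345 and 303 in WT to 201 and 221 in GrnKO (log2 change -0.61).

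The list of lipid uptake, storage, sterol and efflux genes had 23 higher and 1 lower of 115 tested regions (20.0% and 0.87%), with a median log2 change of 0.03. Of the higher regions 8 lay in Nceh1, 6 in Soat1 and 3 in Abca1. Soat1 makes cholesteryl esters and Nceh1 hydrolyses them, and Abca1 exports cholesterol. The Soat1 region at chr1:156468399-156469199 held 37.1 and 33.5 scaled tags in WT and 175 and 144 in GrnKO (log2 change 2.14, SE 0.25, limma adjusted p = 3.2e-05). The Nceh1 region at chr3:27192047-27192847 held 124 and 97.2 in WT and 315 and 317 in GrnKO (log2 change 1.52). A region in the intron of Gm44805, nearest to Apoc2, went from 71.6 and 58.7 to 179 and 141, a call lost without GrnKO replicate 1. The count without GrnKO replicate 1 was 7 higher and 0 lower, and without GrnKO replicate 2 it was 11 and 0. Without WT replicate 1 there were 29 higher and 9 lower (7.83% lower, against 5.40% of all tested regions in that fit), and without WT replicate 2 there were 25 and 4.

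Genes that microglia switch on around amyloid and dying neurons, known as the disease-associated set, had 27 higher (19.6%) and 0 lower of 138 tested regions, with a median log2 change of 0.35. Of these, 18 lay in Soat1, Ctsb, Abca1 and Ctsd, which other lists hold too. Clec7a and Cadm1, with 2 each, also stand in other lists. A region of Ank, a transporter of pyrophosphate, held 11.0 and 14.7 scaled tags in WT and 76.4 and 70.4 in GrnKO. One of Clec7a, the beta-glucan receptor dectin-1, held 53.6 and 51.3 in WT and 119 and 100.1 in GrnKO, and lost its call without either GrnKO library. Without GrnKO replicate 1 there were 5 higher regions and without GrnKO replicate 2 there were 7, while 38 were higher and 2 lower without WT replicate 1 and 36 and 1 without WT replicate 2, and the summed signal of the border macrophage markers given above was also higher in both GrnKO libraries.

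Homeostatic microglia genes had 26 lower (10.0%) and 14 higher (5.38%) of 260 tested regions, with a median log2 change of -0.12. The lower ones lay in 10 genes, 7 in Adgrg1, 4 each in Selplg and Cx3cr1, 3 in Slco2b1, 2 each in Cst3 and Nav3 and 1 each in Bin1, Tmem119, Crybb1 and Cmtm6. The Tmem119 region went from 348 and 313 scaled tags in WT to 156 and 229 in GrnKO (log2 change -0.81). The higher ones lay in Tgfbr2 (5), Nav2 (3), Mertk (3), Entpd1 (2) and Smad3 (1). A region of Tgfbr2, the type II receptor of TGF-beta, held 129 and 115 in WT and 316 and 283 in GrnKO (log2 change 1.29). Lower regions did not outnumber higher ones with the authors' scaling (18 higher, 3 lower, median 0.11) or without WT replicate 2 (31 and 28). They did without WT replicate 1 (22 and 40), GrnKO replicate 1 (4 and 5) or GrnKO replicate 2 (5 and 7). The share of lower regions in this list was above that of all tested regions in each of these fits: 1.15% against 0.412% with the authors' scaling, 15.4% against 5.40% and 10.8% against 5.80% without WT replicates 1 and 2, and 1.92% against 0.247% and 2.69% against 0.522% without GrnKO replicates 1 and 2.

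The list of myeloid and signal-dependent transcription factors had 19 higher (5.18%) and 10 lower (2.72%) of 367 tested regions, 10 of the higher ones in Rxra. A region in 0610040F04Rik, nearest to Bhlhe40, a repressor of the basic helix-loop-helix class, held 75.5 and 71.8 scaled tags in WT and 184 and 171 in GrnKO. Of the lower regions 3 each lay in Klf3 and Foxo1. Adhesion, cytoskeleton and migration genes had 43 higher (10.6%) and 12 lower (2.96%) of 405, led by Sash1 and Fmnl2 with 6 each. For the factors, leaving out 1 library gave 8 to 31 higher (lowest without GrnKO replicate 1, highest without WT replicate 2) and 0 to 25 lower at the same libraries, and the authors' scaling left 1 lower. For adhesion the counts were 12 and 3 without GrnKO replicate 1, 16 and 2 without GrnKO replicate 2, 72 and 20 without WT replicate 1 and 70 and 16 without WT replicate 2, with 53 and 4 under the authors' scaling. A Fmnl2 region, in the gene of an actin-nucleating formin, held 20.3 and 33.5 in WT and 145 and 124 in GrnKO.

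Endosome, Rab, sorting nexin and autophagy genes had 21 higher (8.57%) and 8 lower (3.27%) of 245, of which 10 higher lay in Snx24. Their counts were 6 and 0 without GrnKO replicate 1, 7 and 3 without GrnKO replicate 2, 27 and 14 without WT replicate 1, 25 and 18 without WT replicate 2 and 20 and 0 with the authors' scaling. A region of Atg7, an enzyme of autophagosome formation, held 32.8 and 48.5 scaled tags in WT and 154 and 120 in GrnKO. Phagocytic, Fc, complement and inhibitory receptor genes had 13 higher (5.49%) and 3 lower (1.27%) of 237. Leaving out GrnKO replicate 1 or 2 gave 1 or 2 higher and 0 lower, leaving out WT replicate 1 or 2 gave 20 and 11 or 34 and 16, and the authors' scaling gave 17 and 0. The strongest call there was a region in Rab37, nearest to the inhibitory receptor gene Cd300lf, with 88.0 and 75.4 in WT and 238 and 248 in GrnKO.

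Inflammatory and Toll-like receptor genes had 4 higher (5.41%) and 1 lower (1.35%) of 74 tested regions (1 and 0 without GrnKO replicate 1, 2 and 0 without GrnKO replicate 2, 5 and 8 without WT replicate 1, 8 and 2 without WT replicate 2), with 2 of the higher ones in Tnfaip3, which encodes the NF-kappaB inhibitor A20 (53.2 and 42.2 scaled tags in WT, 155 and 164 in GrnKO). Antigen presentation genes had 1 higher (3.33%), in Mr1, and 2 lower (6.67%), in Cd74, of 30, with 0 of either without GrnKO replicate 1 or 2, 1 and 0 without WT replicate 1, 2 and 5 without WT replicate 2 and 2 and 0 with the authors' scaling. The Cd74 region named by the smallest p held 82.5 and 51.3 in WT and 25.2 and 33.2 in GrnKO (log2 change -1.14, limma adjusted p = 0.035), and its call was lost with the authors' scaling and without WT replicate 1 or either GrnKO library. The Mr1 call was lost with edgeR, with DESeq2, with cyclic loess and without WT replicate 1 or either GrnKO library. The 26 tested regions of interferon-stimulated genes had a median log2 change of -0.31. It was -0.094 with the authors' scaling and -0.20 to -0.26 leaving out 1 library. With limma, edgeR or DESeq2 0 of the 26 were called, and 5 had an unadjusted limma p under 0.05. With limma 1 was lower under cyclic loess, 1 with a pseudocount of 5 and 2 with the replicate block, and without WT replicate 1 or 2 there were 3 or 5 lower. The Usp18 region was nearest to the threshold, with 45.8 and 37.7 in WT and 14.1 and 20.1 in GrnKO (log2 change -1.25, limma adjusted p = 0.051).

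Markers of other brain cells and border macrophages had 15 tested first-intron regions in 6 genes. The 4 higher ones all had their nearest start at Ms4a1, the B cell marker CD20, 3 of them in its own intron and 1 in that of 4930526L06Rik, and 0 were lower. The Ms4a1 region at chr19:11261283-11262083 held 23.5 and 25.9 scaled tags in WT and 136 and 83.5 in GrnKO (log2 change 2.07, SE 0.31, limma adjusted p = 0.00029), and 1 input library held 41.7 there. All 4 calls were lost without GrnKO replicate 1, and 3 were made without GrnKO replicate 2. The median log2 change over the 15 regions was 0.27, and -0.012 without WT replicate 1.

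**Figure D5:**
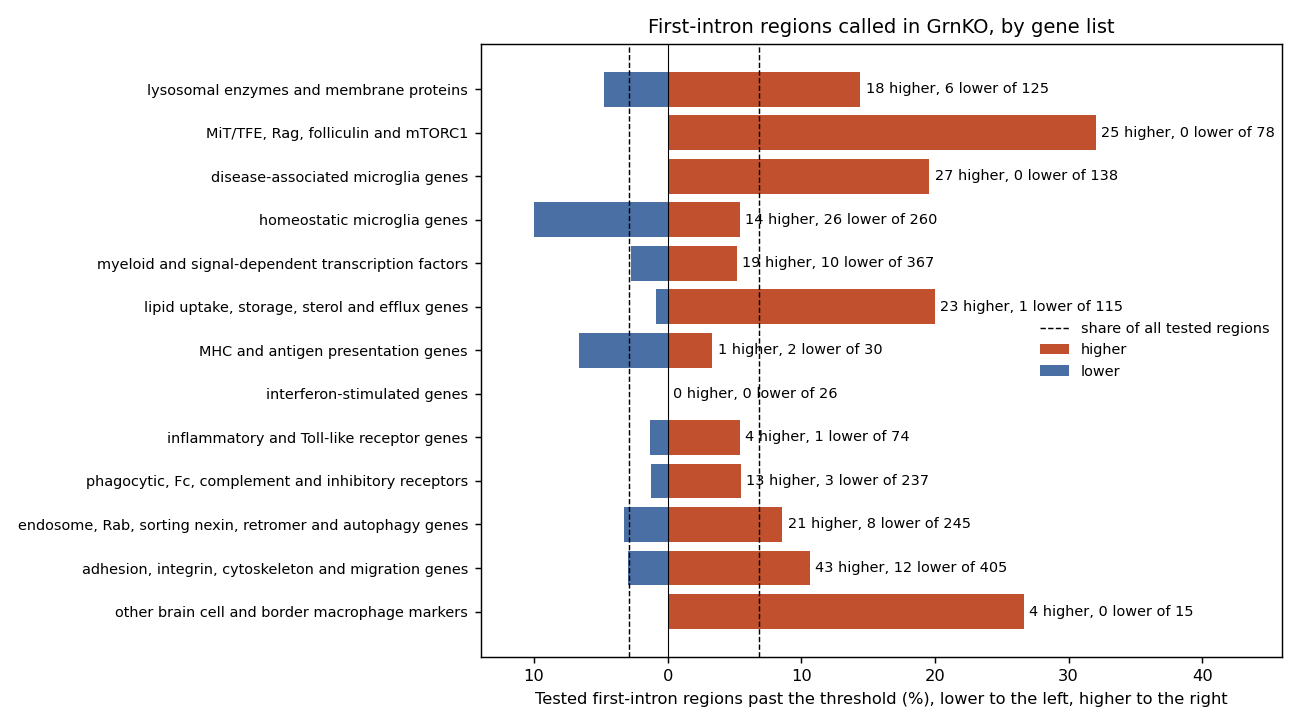
Share of tested first-intron regions past the threshold (%) in 13 gene lists, higher in GrnKO to the right and lower to the left, with the counts beside the bars. Dashed lines mark the shares among all tested regions (6.80% higher, 2.92% lower): the MiT/TFE, other-cell marker, lipid, disease-associated, lysosomal, adhesion and endosome lists extend past the line for higher regions, and the homeostatic, antigen presentation, lysosomal, endosome and adhesion lists past that for lower ones.

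Among the regions with a start of their own, called ones were found in both directions. The Dnmt3a region that holds the start of Gm31623, in the gene of a de novo DNA methyltransferase, held 52.4 and 61.0 scaled tags in WT and 195 and 182 in GrnKO (log2 change 1.72, SE 0.22, limma adjusted p = 6.5e-05). The Pldi region with the start of Gm26947 held 39.9 and 62.6 in WT and 128 and 167 in GrnKO (log2 change 1.53, SE 0.26). The region of 2610035D17Rik, a long non-coding RNA, fell from 166 and 114 to 53.7 and 65.3 (log2 change -1.20, SE 0.25, limma adjusted p = 0.0041). A region of Plxna1, a semaphorin receptor, that holds the start of Gm40415 was near silent in WT, with 0.39 and 2.10, and held 22.1 and 23.1 in GrnKO (log2 change 3.51).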

How the data were processed

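Deposited values are a signal: the authors counted tags over 800 bp regions and scaled them to 10000000 tags per library, per the file headers. Bowtie2, HOMER, DESeq2 and the build mm10 are named without versions in the submitters' processing notes. Read ends, at 2 per tag, came out whole for 100% of values in all 8 columns (within the rounding of the deposited values, 0.005 scaled tags), and edgeR and DESeq2 were run on them as alternatives. In the main test, regions kept by filterByExpr (minimum count 10) were scaled by TMM (factors 0.825 and 1.04 in WT, 1.08 and 1.08 in GrnKO) and fitted by limma with genotype as the only term (lmFit, eBayes with trend) on log2(value + 1). This scale understates changes of low values. P-values were adjusted over all 80728 regions by the Benjamini-Hochberg method. R 4.3.3, limma 3.58.1, edgeR 4.0.16 and DESeq2 1.42.0 were used, and the tests were checked on simulated data.

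Host genes were matched by RefSeq accession for 99.9% of regions, and the nearest start belonged to the host for 92.0%. Coordinates are those of the table. Named regions are the 12 with the smallest p per direction with separated groups (1 per symbol), those of Grn, up to 4 per gene list by p, the genes with most calls (5 per direction), those with the smallest p in the ratio fits (6 per direction) and the 5 of highest mean. A named region and some marker values are not reported here. Any other region or gene was named with its values in view. The members and lists were chosen with earlier results of these data known. Motifs in whole regions were not analysed here. Each replicate was 1 pool of 2 mice, so p-values measure the spread between these pools.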

Additional observations from a re-analysis of the deposited data

How the results depend on the processing

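Over 875 values under alternatives, 769 kept their direction and side of the threshold or stayed within 1.5 times or the replicate spread. Of the 125 values for summary results, such as counts of called regions, 42 moved beyond those bounds and 83 did not. Of the 750 values for named regions 46 became weaker, 16 stronger and 2 reversed: leaving out 1 library, the Rasgrp3 region had log2 changes of -0.12 to 0.24 and the Tmem86a region of -0.050 to 0.17, below 0 without WT replicate 1 and never past the threshold. The cause was not tested. Against 322 lower regions, 49 were lower with the authors' scaling, which moves the median to 0.22, and without the filter, where more regions enter the adjustment, 134 were lower. At least a 2-fold change left 762 regions, 116 of them lower. Leaving out 1 library gave 223 to 2078 called regions, 196 to 1465 higher and 27 to 658 lower, and the median log2 change ran from -0.032 to 0.036. That median was -0.019 with cyclic loess, 0.22 with the authors' scaling and 0.014 without the filter. Leaving out 1 library, gene sums called 132 to 624 (110 to 410 higher, 22 to 230 lower), with 32 lower under the authors' scaling. With a minimum mean of 30, which keeps fewer genes, the promoter ratio called 8 genes, all higher, and the later-intron ratio 27 (15 higher, 12 lower). The later-intron ratio called 0 without either GrnKO library.

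Same-numbered samples are different mice, and their deviations correlated at r = 0.042 over 11302 regions. With the replicate block 1132 regions were higher and 578 lower, 324 gene sums were lower, and the later-intron ratio called 0 genes, with 0 lower. Restricting to the 14726 regions whose host gene has the nearest start, chosen after seeing the data, gave 798 higher and 286 lower. Counts in the lists and distance ranges without single libraries were also added after seeing the data.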
